A study of Rattus norvegicus with 18 samples.

Results

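The 10 genes described here encode the subunits of the 2 chaperonins of a rat cell. Tcp1, Cct2, Cct3, Cct4, Cct5, Cct6a, Cct7 and Cct8 encode the 8 subunits of the cytosolic chaperonin CCT, also called TRiC. Hspd1 encodes mitochondrial HSP60, and Hspe1 encodes its cochaperonin HSP10. The genes were taken by symbol, and all 10 were found among the 13188 genes of the deposited RNA-seq table. The cells were HO15.19, a fibroblast line derived from Rat1 in which endogenous myc is deleted (myc-/-), and all 6 groups of 3 libraries come from it. The question was which transcripts respond to MYC and which of these responses involve the aryl hydrocarbon receptor (AHR), a ligand-activated transcription factor. The groups were myc-/- cells without transfection, myc-/- cells given a control siRNA (myc-/- siCtrl), myc-/- cells stably expressing human MYC without transfection (myc-/- + MYC), and the same MYC-expressing cells given the control siRNA (siCtrl) or either of 2 siRNAs against AHR (siAHR-2 and siAHR-5). The siRNAs were used at 40 nM for 48 h in medium with serum. MYC came from a viral vector with its own promoter in stable lines, the labels name a single line as the source of all groups, and they do not say whether the 3 libraries of a group are separate cultures. The p-values therefore measure the spread between these libraries, which may be technical. In bulk RNA, fewer cells with a transcript and less of it per cell cannot be told apart.

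A chaperonin is a ring-shaped ATPase that encloses an unfolded protein and releases it once it has folded. CCT sits in the cytosol, each of its subunits has a fixed place in the ring, and actin and tubulin are the clients it is best known for. Prefoldin delivers these clients to it. HSP60 does the same work in the mitochondrial matrix for imported proteins, with HSP10 as the lid of its chamber, next to the mitochondrial HSP70 cycle. In fibroblasts, both machines are made constitutively, and HSP60 and HSP10 are also members of the heat shock response.

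Hspd1 and Hspe1 are neighbours that are read in opposite directions from a common stretch of DNA, and their windows are shown because the AHR siRNAs lowered these genes in opposite order of size. In the RefSeq annotation of the rat assembly GRCr8, which is not the build the reads were aligned to, a window of 250 bases before to 50 bases after the start site was matched for 10 of 10 genes. The start sites of Hspd1 and Hspe1 lie 290 bases apart, and 211 bases of their windows are the same DNA read from either strand. Capitals mark the match to GAANNTTC, an inverted pair of heat shock element units. It is a single site, at position -237 from the start of Hspd1 and -60 from the start of Hspe1. The Hspd1 window is chr9:64083988-64084287 on the minus strand, and the Hspe1 window is chr9:64084077-64084376 on the plus strand.
Hspd1: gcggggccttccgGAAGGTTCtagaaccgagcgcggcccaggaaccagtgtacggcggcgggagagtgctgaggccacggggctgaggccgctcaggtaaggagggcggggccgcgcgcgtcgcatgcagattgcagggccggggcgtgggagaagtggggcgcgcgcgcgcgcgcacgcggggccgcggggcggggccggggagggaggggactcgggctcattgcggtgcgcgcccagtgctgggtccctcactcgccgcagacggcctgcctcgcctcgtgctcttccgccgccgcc
Hspe1: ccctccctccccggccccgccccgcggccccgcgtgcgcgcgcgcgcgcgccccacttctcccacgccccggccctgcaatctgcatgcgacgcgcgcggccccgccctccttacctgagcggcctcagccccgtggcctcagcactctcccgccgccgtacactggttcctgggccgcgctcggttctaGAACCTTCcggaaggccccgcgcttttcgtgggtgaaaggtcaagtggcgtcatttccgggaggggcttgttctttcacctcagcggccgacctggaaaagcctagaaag

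Cct5 and Tcp1 are shown as the CCT genes whose transcripts were the most and the least raised in cells with MYC. Capitals mark GCGTG, the core of the AHR site, on either strand. The Cct5 window, chr2:84313724-84314023 on the minus strand, holds 2 overlapping matches. The Tcp1 window, chr1:50384478-50384777 on the minus strand, holds 3 matches.
Cct5: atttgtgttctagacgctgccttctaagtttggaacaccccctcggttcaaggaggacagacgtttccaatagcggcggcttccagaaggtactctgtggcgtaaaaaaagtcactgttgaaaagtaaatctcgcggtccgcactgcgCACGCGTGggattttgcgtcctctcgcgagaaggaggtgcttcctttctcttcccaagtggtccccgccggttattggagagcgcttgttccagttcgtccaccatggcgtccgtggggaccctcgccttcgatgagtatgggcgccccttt
Tcp1: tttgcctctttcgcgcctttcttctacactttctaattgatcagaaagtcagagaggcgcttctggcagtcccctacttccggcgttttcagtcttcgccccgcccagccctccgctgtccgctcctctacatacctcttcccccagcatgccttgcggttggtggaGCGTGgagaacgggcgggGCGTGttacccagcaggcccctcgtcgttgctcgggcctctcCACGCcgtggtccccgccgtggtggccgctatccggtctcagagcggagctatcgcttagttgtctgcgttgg

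Across the 10 windows, searched on both strands, GCGTG was found in 8, all except Cct7 and Cct8, and in 29.7% of the 33469 windows of the annotation. The Hspd1 and Hspe1 windows overlap and hold the same 2 sites, so the count takes that stretch of DNA from both genes. CACGTG, the canonical E-box that MYC and MAX bind, was found in 0 of the 10 windows and in 6.42% of all windows. Non-canonical forms of the E-box were not searched, so the count holds for the canonical letters only. CCAAT was found in 5 windows (Cct3, Cct5, Cct6a, Cct7 and Cct8), against 37.5% of all. GAANNTTC was found in 3 windows (Hspd1, Hspe1 and Cct4), of which the first pair share their site, against 8.59% of all. The windows of the annotation were not matched to those of the members in base composition, and its part in these counts was not tested. A match is a description of the letters in these windows and does not show that a factor binds there.

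The deposited values are normalised expression on a log2 scale, and the depth of the libraries is unknown. The libraries lie on 2 different scales. A 6-library set holds the untransfected cells with MYC and the myc-/- cells given siCtrl, and a 12-library set holds the other 4 groups, so groups were compared only within a set. Single genes also differ between the sets in both directions. Krt19 of epithelia was at 7.30 to 7.73 in the 6-library set and 2.42 to 2.46 in the 12-library set. Kdr of endothelia was at 0.94 to 0.98 and 5.26 to 5.51. The transfection status is given as the sample labels state it. In the 6-library set the columns of the table are named only as control and Myc, so the values themselves offer no check of that status. As labelled, both comparisons of MYC also change transfection, and the effects of the 2 cannot be told apart within either. If those labels were wrong, what the MYC comparison in the 6-library set and the difference between sets stand for would change. Rat Myc was listed with signal in every library, at 9.16 to 9.47 in myc-/- siCtrl and 8.01 to 8.08 in myc-/- + MYC, and at 10.82 to 10.94 in myc-/- and 8.16 to 8.27 in siCtrl with MYC. The human transgene has no row of its own in the values used here. Ahr was lower with either siRNA, with siAHR-2 giving a log2FC of -1.29 and siAHR-5 of -1.39 (adjusted p = 2.37e-04 and 2.16e-04, limma). The fibroblast genes Vim and Fn1 were at 18.32 to 19.70 and 17.67 to 20.63 in all libraries, while Ptprc of leukocytes, Epcam and Cdh1 of epithelia and Rbfox3 of neurons were at 4.65 or below. The markers were mixed, since the fibroblast genes Col1a2 and Fap were at 3.64 to 4.13 and 4.64 to 5.37, and some markers of other cell types were higher, with Krt8 of epithelia at 6.02 to 9.05, Cd3e of leukocytes at 6.63 to 9.39, Des of muscle at 8.45 to 10.24 and Map2 of neurons at 10.34 to 11.27. Some low values hardly varied, as Col1a2 with an SD of up to 6.7e-04 in the MYC groups of the 12-library set. They may be a floor that differs by gene and set, so low levels do not compare between genes. Of 12 fibroblast markers, 5 were lower and 1 higher with MYC past a fold of 1.50 and an adjusted p of 0.01 (limma) in the 6-library set, and 7 were lower in the 12-library set, where 1884 and 1936 of 13188 genes were lower. With the FDR of 5% alone, 7 were lower and 4 higher in the 6-library set, and 10 lower and 0 higher in the 12-library set. Of all 13188 genes, 5137 were lower and 4914 higher in the 6-library set, and 4368 and 4170 in the 12-library set. Among the markers of other cell types, Krt8 was higher past both cutoffs in both sets (log2FC 1.70 and 1.17). Cd3e (-2.09 and -1.13) and Des (-1.29 and -1.14) were lower past both in both sets, and Gfap (-0.65) in the 6-library set. The part of these shifts in the results below was not tested. RefSeq lists pseudogenes named after 8 of the members, with 20 for Hspd1 and 14 for Cct6a, and none of them has a row in the table. How reads shared with them were counted is not known, so the levels of these genes carry that uncertainty.

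Most CCT subunits were expressed more in cells with MYC. In the 6-library set, comparing myc-/- + MYC with myc-/- siCtrl, 7 of the 8 subunit transcripts rose at a false discovery rate (FDR) of 5%, as 37.3% of all genes did, and Tcp1 fell, as 39.0% did. The same 7 rose in the 12-library set, which compares siCtrl-transfected cells with MYC to myc-/- cells and in which 31.6% of all genes rose. The rises were modest, 15.8% to 89.4% off the log scale in the 6-library set and 11.6% to 87.2% in the 12-library set. Cct5 moved most and Cct4 least among the 7 in both sets.

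**Figure D1:**
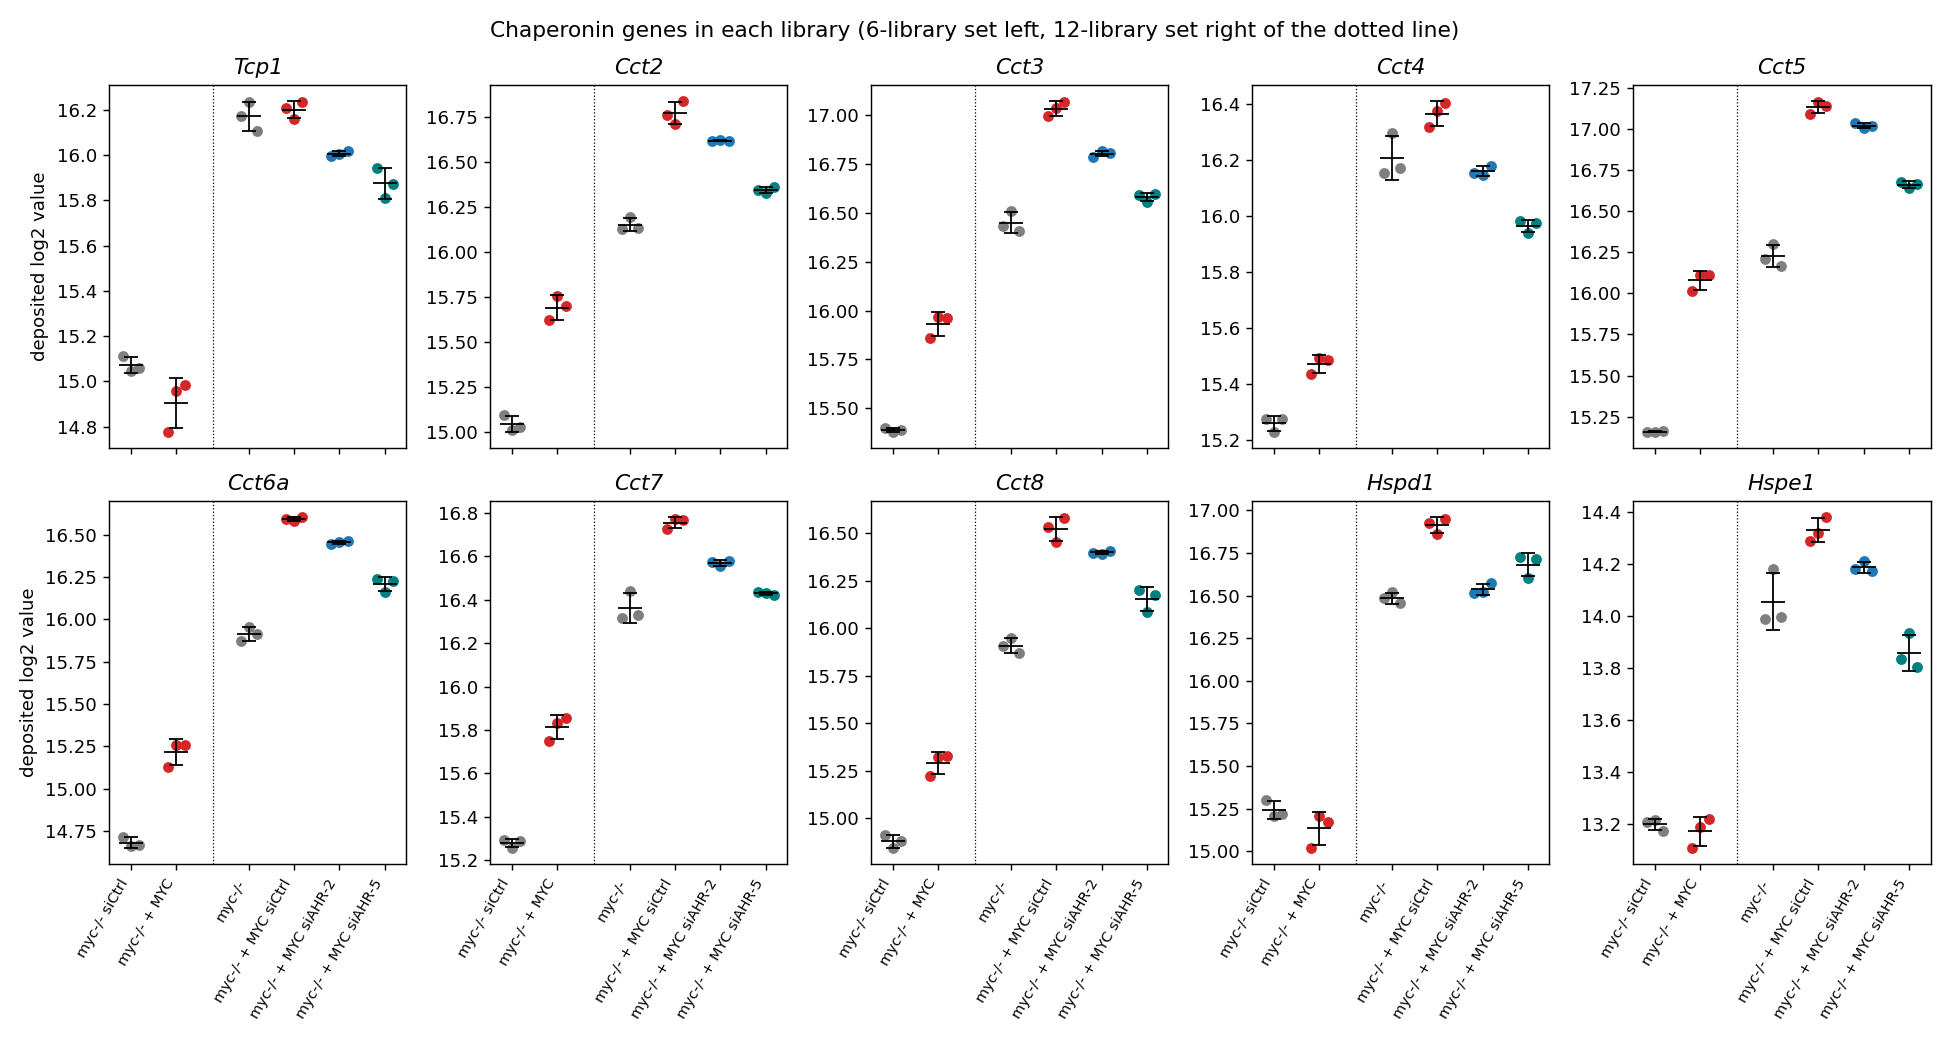
Deposited log2 values of the 10 genes in each of the 18 libraries, 1 panel per gene with its own vertical axis. Points are libraries, long bars are group means and whiskers are SD (n = 3), and the dotted line separates the 6-library set (left) from the 12-library set (right), whose scales differ. Cct5 is higher in every library with MYC than in every library without it in the same set, while Tcp1 overlaps between myc-/- and siCtrl with MYC in the 12-library set.

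Cct5, the epsilon subunit, was at 15.16, 15.16 and 15.16 in the 3 myc-/- siCtrl libraries and at 16.01, 16.11 and 16.11 in the 3 myc-/- + MYC libraries. The 12-library set had it at 16.21, 16.30 and 16.17 in myc-/- and at 17.09, 17.16 and 17.14 in siCtrl with MYC. The groups did not overlap in either set. The log2FC was 0.92 ± 0.03 (SE, n = 3 and 3, adjusted p = 3.48e-10, limma) in the 6-library set and 0.90 ± 0.04 (adjusted p = 1.28e-05, limma) in the 12-library set, a 1.89-fold and a 1.87-fold difference. These values stood at the percentiles 94.3 and 95.3 of the log2FC of all genes.

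Cct2, the beta subunit, passed both cutoffs in both sets, as Cct5 did, with a fold of at least 1.50 in either direction and an adjusted p of at most 0.01, which 12.5% and 10.8% of all genes passed as higher. Its libraries ranged from 15.01 to 15.09 in myc-/- siCtrl and from 15.62 to 15.75 in myc-/- + MYC, and from 16.13 to 16.19 in myc-/- and 16.71 to 16.84 in siCtrl with MYC. The log2FC was 0.65 (95% interval 0.56 to 0.73, adjusted p = 2.77e-08, limma) and 0.62 (0.52 to 0.72, adjusted p = 4.83e-05, limma).

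Cct6a and Cct8, the zeta and theta subunits, passed both cutoffs in the 12-library set only on the deposited values. Under quantile normalization more members passed in the 6-library set, as counted below. Cct6a was at 14.66 to 14.72 in myc-/- siCtrl and 15.13 to 15.26 in myc-/- + MYC, a log2FC of 0.53. Its range in the 12-library set was 15.87 to 15.95 in myc-/- and 16.58 to 16.60 in siCtrl with MYC, a log2FC of 0.68. Cct8 was at 14.85 to 14.91 and 15.22 to 15.33 in the 6-library set (log2FC 0.41) and at 15.87 to 15.95 and 16.45 to 16.58 in the 12-library set (log2FC 0.61). Without siCtrl replicate 3, Cct8 came to 0.58 in the 12-library set and missed the fold cutoff. Both genes rose at an FDR of 5% in both sets without overlap between the groups.

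Cct3 and Cct7, the gamma and eta subunits, lay near or below the fold cutoff. Cct3 rose by a log2FC of 0.54 in the 6-library set and 0.58 in the 12-library set, a 1.45-fold and a 1.50-fold difference of which the second lay just under the cutoff, and its groups did not overlap. Cct7 rose by 0.53 and 0.39. Cct4, the delta subunit, was the smallest rise. Its libraries were at 15.27, 15.23 and 15.27 against 15.43, 15.49 and 15.48 in the 6-library set, a log2FC of 0.21 (adjusted p = 3.99e-05, limma). Those of the 12-library set were at 16.15, 16.30 and 16.17 against 16.32, 16.37 and 16.40, a log2FC of 0.16 (adjusted p = 0.0298, limma). The highest myc-/- library lay just under the lowest one with MYC. The rise of Cct4 in the 12-library set was lost in 4 of 6 fits that leave out a library, those without myc-/- replicate 1 or 3 or siCtrl replicate 2 or 3, with an adjusted p of up to 0.0984 (limma).

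Tcp1, the alpha subunit, did not pass as higher in either set on the deposited values. It was at 15.11, 15.05 and 15.06 in myc-/- siCtrl and at 14.78, 14.96 and 14.98 in myc-/- + MYC. The groups did not overlap, and the log2FC was -0.17 (95% interval -0.27 to -0.06, adjusted p = 0.00845, limma). The 12-library values were 16.17, 16.23 and 16.11 in myc-/- and 16.21, 16.16 and 16.23 in siCtrl with MYC, with overlapping groups. The log2FC there was 0.03 (-0.08 to 0.13, adjusted p = 0.579, limma). The direction in the 6-library set depends on the scaling, since quantile normalization gave 0.06 (adjusted p = 0.224, limma). In the 12-library set quantile normalization gave 0.20 (adjusted p = 0.00325, limma). The call in the 6-library set was also lost without myc-/- siCtrl replicate 1 (adjusted p = 0.0640, limma). Over the 6 fits that leave out a library there, the value of Tcp1 ranged from -0.21 to -0.10.

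Cct5 and Tcp1, a pair picked after their values were seen, can be compared within a library, where the scaling of the library cancels. The log2 value of Cct5 exceeded that of Tcp1 by 0.04 to 0.11 in the myc-/- siCtrl libraries and by 1.13 to 1.24 in the myc-/- + MYC libraries. For the 12-library set the difference was 0.04 to 0.07 in myc-/- and 0.89 to 1.01 in siCtrl with MYC. The size of the difference within 1 library includes the lengths of the transcripts, but its change between libraries does not.

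**Figure D2:**
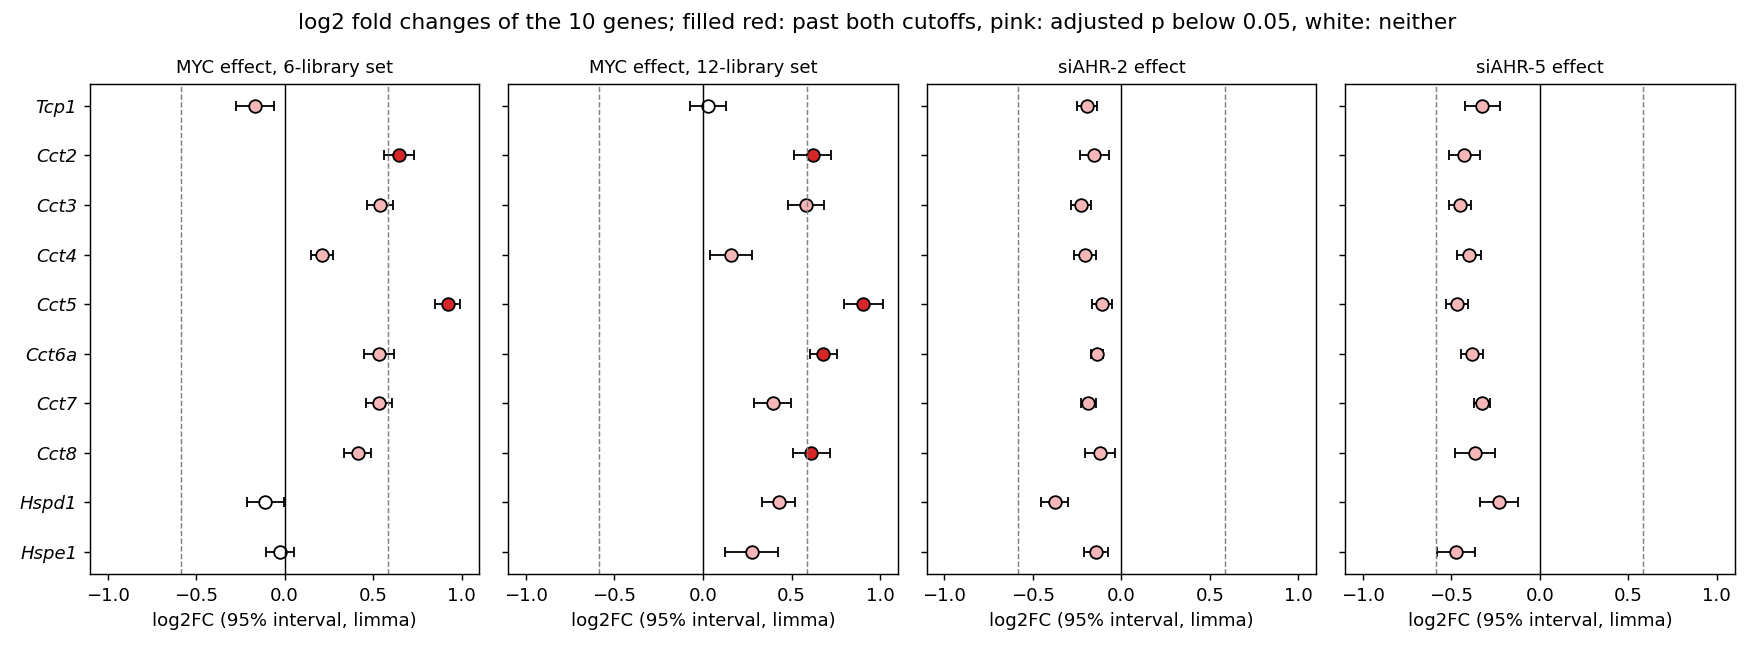
log2FC of the 10 genes in the 4 comparisons with 95% intervals from limma (3 against 3 libraries each). The dashed vertical lines mark the fold cutoff, filled red points passed both cutoffs, pink points passed an FDR of 5% and white points passed neither. The CCT genes except Tcp1 lie to the right of 0 in both MYC panels, and all 10 genes lie to the left of 0 in both siRNA panels.

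Mitochondrial HSP60 and HSP10 did not follow CCT in the 6-library set. Hspd1 was at 15.30, 15.21 and 15.22 in myc-/- siCtrl and at 15.02, 15.21 and 15.17 in myc-/- + MYC, a log2FC of -0.11 (adjusted p = 0.0532, limma). Hspe1 was at 13.21, 13.21 and 13.17 against 13.11, 13.19 and 13.22, a log2FC of -0.03 (95% interval -0.10 to 0.05, adjusted p = 0.511, limma). Neither passed the test in this fit, and the result for Hspd1 depends on the setting. Over the 6 fits that leave out a library, Hspd1 ranged from -0.15 to -0.05. In 5 of these it did not pass an FDR of 5% (adjusted p of up to 0.228, limma). Hspd1 was lower at an FDR of 5% under median centring (-0.15, adjusted p = 0.00885, limma), with all 18 libraries in one fit (adjusted p = 0.0362, limma) and without myc-/- + MYC replicate 2 (adjusted p = 0.0260, limma). Under quantile normalization both values were positive, 0.11 for Hspd1 and 0.09 for Hspe1 (adjusted p = 0.0419 and 0.0359, limma).

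Both mitochondrial genes rose in the 12-library set. Hspd1 went from 16.48, 16.52 and 16.45 in myc-/- to 16.93, 16.86 and 16.95 in siCtrl with MYC, a log2FC of 0.43 (adjusted p = 1.34e-04, limma). Hspe1 went from 13.987, 14.180 and 13.996 to 14.29, 14.32 and 14.38, a log2FC of 0.28 (adjusted p = 0.00805, limma). The groups did not overlap for either gene.

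Counted over the 10 genes, 2 passed both cutoffs as higher in the 6-library set and 4 in the 12-library set, where 12.5% and 10.8% of all genes did. At an FDR of 5%, 7 members were higher in the 6-library set, against 37.3% of all genes, and 1 was lower, against 39.0%. At the same FDR, 9 members were higher in the 12-library set, against 31.6% of all genes. The groups did not overlap and the cells with MYC were higher for 7 members in the 6-library set and 9 in the 12-library set, against 37.9% and 33.8% of all genes. They were lower without overlap for 2 members in the 6-library set, Tcp1 and Hspd1, against 5395 of 13188 genes, and for 0 in the 12-library set. The separation of Hspd1 is slight, since its nearest libraries are both at 15.21. The median log2FC of the members was 0.47 and 0.50, and that of all genes was -0.00 in both sets. With quantile normalization the counts past both cutoffs were 6 and 7, where 1799 and 1796 of 13188 genes passed as higher. In the 6-library set, myc-/- + MYC replicate 1 was the lowest library of its group for every member, and in the 12-library set, myc-/- replicate 2 was the highest of its group for every member.

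The 2 MYC comparisons share no library, and the difference between their effects was tested in one limma fit (12-library set minus 6-library set). It was 0.54 ± 0.07 (SE) for Hspd1 (adjusted p = 9.36e-06, limma) and 0.30 ± 0.07 for Hspe1 (adjusted p = 0.00222, limma). Among CCT subunits it was 0.20 for Cct8 (adjusted p = 0.0108), 0.20 for Tcp1 (0.0321) and 0.15 for Cct6a (0.0423) in the same limma fit. These 5 of 10 members passed an FDR of 5%, where 24.8% of all genes were higher in the 12-library set, and 0 of 10 passed both cutoffs in limma, where 6.79% of all genes did as higher and 1275 of 13188 genes as lower. At an unadjusted p of 0.05, 6 of 10 members passed, as did 7862 of 13188 genes. Tcp1 and Cct6a lost the call in 6 and 9 of 12 fits that leave out a library, with an adjusted p of up to 0.0814 and 0.0977 (limma). The count at an FDR of 5% was 3 without myc-/- siCtrl replicate 1, myc-/- siCtrl replicate 3, siCtrl replicate 1 with MYC or siCtrl replicate 3 with MYC, each left out alone.

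For the other 5 subunits the difference between sets did not pass an FDR of 5% on the deposited values. It was smaller than its SE for 4 of them, at -0.02 (95% interval -0.14 to 0.11) for Cct5, -0.03 (-0.16 to 0.10) for Cct2, 0.04 (-0.08 to 0.16) for Cct3 and -0.05 (-0.18 to 0.07) for Cct4. For Cct7 it was -0.14, with an interval of -0.26 to -0.02 that leaves out 0 and an adjusted p of 0.0527 (limma). Cct7 passed as lower with all 18 libraries in one fit (adjusted p = 0.0205, limma) and in 3 of the 12 fits that leave out a library (adjusted p = 0.0192 to 0.0498, limma). Under quantile normalization Cct3 came to 0.23 and passed as higher (adjusted p = 8.74e-04, limma). The intervals bound these differences but do not show that the effects were equal. Over the 8 CCT subunits, the order of the MYC effects was alike in the sets, with Pearson's r of 0.921 and Spearman's rho of 0.833 as a description across genes, which are not independent replicates.

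**Figure D3:**
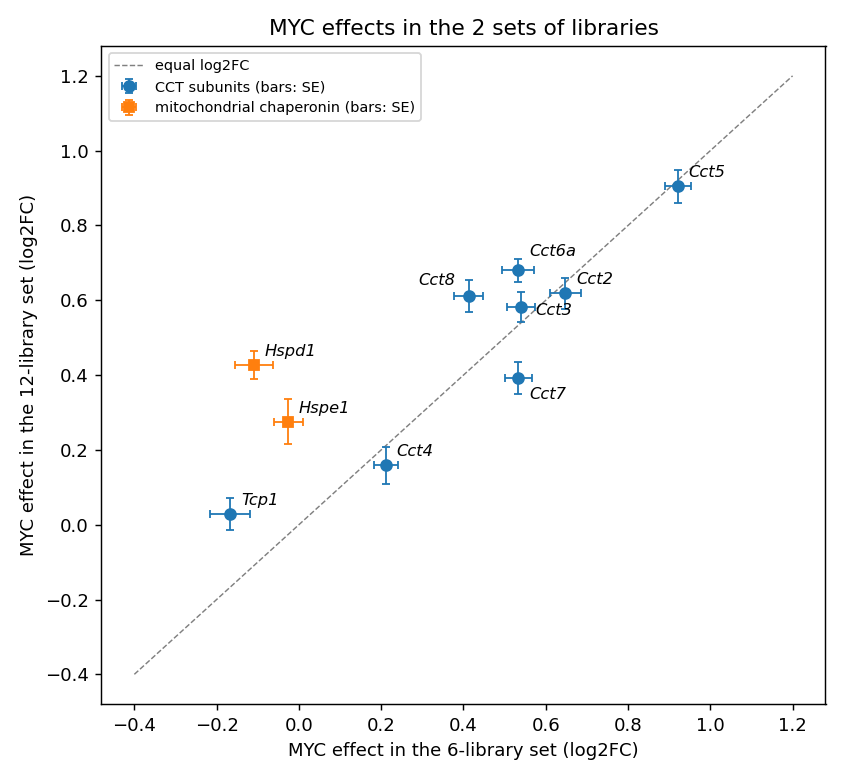
MYC effect (log2FC) of each gene in the 6-library set (horizontal) and the 12-library set (vertical), with SE bars from limma and a dashed line of equal effects. CCT subunits are circles and the mitochondrial genes are squares. Cct5 lies at the top right of the line at 0.92 and 0.90, and Hspd1 lies farthest above it, at -0.11 and 0.43.

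In cells with MYC, the transcripts of all 10 genes fell at an FDR of 5% with either siRNA against AHR, as 15.5% of all genes did with siAHR-2 and 18.1% with siAHR-5. The changes were small, from -7.41% to -23.0% for siAHR-2 and from -14.8% to -27.9% for siAHR-5 off the log scale, and 0 of 10 passed both cutoffs in limma. At an unadjusted p of 0.05, 10 of 10 passed for each siRNA, as did 5326 of 13188 genes with siAHR-2 and 6300 with siAHR-5. Both effects were measured against the same 3 siCtrl libraries, so they are not independent of each other and are given side by side.

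Cct5 was at 17.09, 17.16 and 17.14 in siCtrl, at 17.04, 17.01 and 17.02 with siAHR-2 and at 16.68, 16.64 and 16.66 with siAHR-5. The 3 groups did not overlap and followed one another in that order. The log2FC was -0.11 (adjusted p = 0.0172, limma) for siAHR-2 and -0.47 (adjusted p = 3.08e-04, limma) for siAHR-5. Under quantile normalization the siAHR-2 value was -0.02 (adjusted p = 0.570, limma). Its call was also lost with the replicate block (adjusted p = 0.0708, limma) and in 2 of 6 fits that leave out a library. With siAHR-5, Cct5 still lay above the 3 myc-/- libraries (16.17 to 16.30).

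The other CCT subunits that rose with MYC gave the same order of groups. For Cct2 the log2FC was -0.15 with siAHR-2 and -0.43 with siAHR-5, and for Cct3 it was -0.23 and -0.45. Cct6a gave -0.14 and -0.38, and Cct8 gave -0.12 and -0.37. Cct7 gave -0.19 and -0.33, and Cct4 gave -0.20 and -0.40, so that every one of these subunits was lower with either siRNA. The smallest of these, Cct8 with siAHR-2, had an adjusted p of 0.0443 (limma). Under quantile normalization the siAHR-2 values were -0.03 for Cct8 and -0.07 for Cct2 (adjusted p = 0.548 and 0.0952, limma). The replicate block also ended both calls (adjusted p = 0.0628 and 0.0531, limma). Leaving out a library lost the siAHR-2 call in 5 of 6 fits for Cct8 and 4 of 6 for Cct2. With siAHR-5, Cct2, Cct3, Cct6a and Cct8 also stayed above the range of the myc-/- libraries, Cct7 (16.42 to 16.43) lay within it (16.32 to 16.44), and Cct4 (15.94 to 15.98) lay below it (16.15 to 16.30).

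Tcp1 fell as well, although it had not passed as higher with MYC in this set on the deposited values. It was at 16.21, 16.16 and 16.23 in siCtrl, at 15.994, 16.004 and 16.016 with siAHR-2 and at 15.94, 15.81 and 15.87 with siAHR-5. The log2FC was -0.19 (adjusted p = 0.00281, limma) and -0.32 (adjusted p = 0.00236, limma). The libraries of both siRNAs lay below those of myc-/- cells (16.11 to 16.23).

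The mitochondrial pair gave opposite orders of the siRNAs. Hspd1 was at 16.93, 16.86 and 16.95 in siCtrl, at 16.51, 16.52 and 16.57 with siAHR-2 and at 16.72, 16.61 and 16.71 with siAHR-5. Its log2FC was -0.38 (adjusted p = 0.00122, limma) with siAHR-2, the largest fall of the 10 genes, and -0.23 (adjusted p = 0.00902, limma) with siAHR-5, the smallest. Hspe1 was at 14.29, 14.32 and 14.38 in siCtrl, at 14.18, 14.21 and 14.17 with siAHR-2 and at 13.83, 13.93 and 13.81 with siAHR-5. Its log2FC was -0.14 (adjusted p = 0.0147, limma) and -0.47 (adjusted p = 9.02e-04, limma), the largest fall with siAHR-5. With siAHR-2 the libraries of both genes overlapped those of myc-/- cells, and with siAHR-5 Hspd1 lay above and Hspe1 below them.

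Counted over the members, 0 of 10 passed both cutoffs as lower with siAHR-2 or siAHR-5 in limma, where 0.311% and 0.849% of all genes did. At an FDR of 5%, 10 of 10 were lower with siAHR-2, against 15.5% of all genes, and 10 of 10 with siAHR-5, against 18.1%. All 10 were lower without overlap between the groups in each comparison, against 21.8% and 22.2% of all genes. The median log2FC of the members was -0.17 with siAHR-2 and -0.39 with siAHR-5, and that of all genes was 0.00 and 0.01. Genes with a mean value above 14, as most members have, had a median of -0.05 with either siRNA. Without siAHR-2 replicate 3, 6 of the 10 members stayed at an FDR of 5% for siAHR-2, the exceptions being Cct2, Cct5, Cct8 and Hspe1 (adjusted p of up to 0.0713, 0.0688, 0.126 and 0.0576 over the fits that leave out a library, limma), and under quantile normalization 7 did, with a member median of -0.09. For siAHR-5, 9 of the 10 stayed at an FDR of 5% under quantile normalization, with a member median of -0.26, and the exception was Hspd1 (-0.10, adjusted p = 0.0950, limma).

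The siRNAs were then compared with each other directly, which uses no siCtrl library. At an FDR of 5%, 9 members were lower with siAHR-5 than with siAHR-2, against 17.0% of all genes, and 1, Hspd1, was higher, against 22.1%. The difference was -0.36 ± 0.02 (SE, adjusted p = 1.05e-04, limma) for Cct5 and -0.33 ± 0.04 (adjusted p = 0.00157, limma) for Hspe1. It ranged from -0.27 for Cct2 to -0.13 for Tcp1 among the other CCT subunits. For Hspd1 it was 0.15 ± 0.04 (adjusted p = 0.0291, limma). The calls for Hspd1 and Tcp1 were each lost in 4 of 6 fits that leave out a library, with an adjusted p of up to 0.0966 and 0.0991 (limma), and kept their direction in all 6. Ahr itself differed by -0.11 between the siRNAs (adjusted p = 0.211, limma), which does not show that it was lowered equally.

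Hspd1 and Hspe1, whose start sites share the promoter stretch printed above, can also be set against each other within a library. The log2 value of Hspd1 exceeded that of Hspe1 by 2.54 to 2.64 in siCtrl, by 2.31 to 2.40 with siAHR-2 and by 2.67 to 2.91 with siAHR-5. These 3 ranges do not overlap. The difference was 2.34 to 2.50 in myc-/- cells, and 1.996 to 2.095 and 1.91 to 2.02 in myc-/- siCtrl and myc-/- + MYC. For Cct5 and Tcp1, the difference was 1.00 to 1.04 with siAHR-2 and 0.74 to 0.83 with siAHR-5, against 0.89 to 1.01 in siCtrl.

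**Figure D4:**
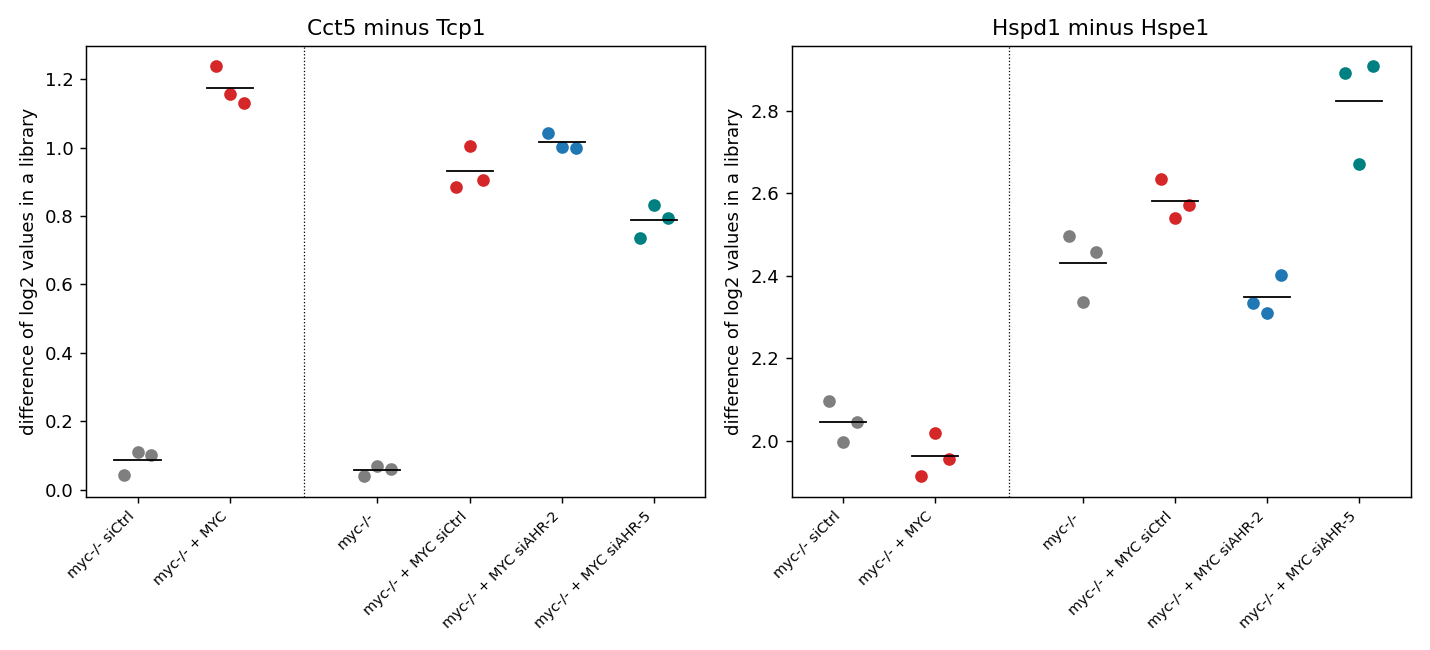
Difference of deposited log2 values within a library for Cct5 minus Tcp1 (left) and Hspd1 minus Hspe1 (right). Points are libraries, horizontal bars are group means (n = 3), and the dotted line separates the 6-library set from the 12-library set. Cct5 minus Tcp1 is 0.11 or less in every library without MYC, and Hspd1 minus Hspe1 is lowest with siAHR-2 and highest with siAHR-5 among the cells with MYC in the 12-library set.

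Other chaperone genes were counted as lists. Of the prefoldin and phosducin-like cochaperones of CCT, 7 of 9 listed genes were measured, and 0 passed both cutoffs in either MYC comparison in limma. At an unadjusted p of 0.05, 7 and 6 of the 7 passed, as did 10221 and 8875 of 13188 genes. In the 6-library set 2 were higher and 5 lower at an FDR of 5%, and in the 12-library set 2 were higher and 4 lower. Over all 13188 genes, 4914 were higher and 5137 lower at that FDR in the 6-library set, and 4170 and 4368 in the 12-library set. Their median log2FC was -0.13 in the 6-library set and -0.18 in the 12-library set, below the 0.53 and 0.60 of the CCT subunits. The prefoldin subunits Pfdn2, at 0.32 and 0.48, and Pfdn5, at 0.17 and 0.22, were higher at that FDR in both sets. Pfdn6, a prefoldin subunit, at -0.10 and -0.21, and Pdcl3, a phosducin-like protein, at -0.13 and -0.18, were lower in both. Pfdn1, the subunit with the highest mean, was at -0.13 in both sets and passed as lower in the 6-library set only.

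The genes of CCT clients and of the tubulin cofactors, which take over tubulin after CCT, moved in both directions. Of 13 tubulin and actin genes, 1 passed as higher and 4 as lower in the 6-library set, and 2 as higher and 2 as lower in the 12-library set. Of all 13188 genes, 1653 passed as higher and 1884 as lower in the 6-library set, and 1425 and 1936 in the 12-library set, and the lists that follow stand beside the same shares. Tuba4a, an alpha-tubulin, was higher by 1.94 and 2.12, and Acta2, the smooth muscle actin, was lower by log2FC of -1.49 and -5.27. The medians of the list were -0.15 and -0.30. Of 5 tubulin cofactors, 1 passed in each set, Tbca, by 0.80 and 0.72. Tbcd, the cofactor with the next highest mean, was at 0.18 and 0.28, higher at an FDR of 5% in both.

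Of 9 measured genes of the mitochondrial HSP70 cycle and matrix proteases, 2 passed as higher in each set. Trap1, the mitochondrial HSP90, passed in both, at 0.59 and 0.68. Hscb, a cochaperone of iron-sulfur cluster assembly, was at 1.14 and 0.47. Lonp1, a matrix protease, was at -0.38 in the 6-library set and 0.63 in the 12-library set. Hspa9, the mitochondrial HSP70, was at 0.23 and 0.57. In the fit of the difference between sets, 5 of the 9 genes, Lonp1 and Hspa9 among them, were higher in the 12-library set at an FDR of 5%, against 24.8% of all genes, and 1, Hscb, was lower (-0.66).

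The R2TP complex, which assembles large complexes together with HSP90, had 2 of 4 genes past both cutoffs in each set. These were its ATPases Ruvbl1, at 1.03 and 0.93, and Ruvbl2, at 0.99 and 1.24. Of 15 cytosolic HSP70, HSP90 and heat shock genes, 2 passed as higher and 2 as lower in the 6-library set, and 1 as higher and 3 as lower in the 12-library set. Hsf1, the main heat shock transcription factor, was at 0.60 and 0.61, and Bag3, an HSP70 cochaperone, was at -0.72 and -1.09. Hspb1, a small heat shock protein, was at 1.30 and 0.19, and Hspa2, an HSP70, at -0.61 and -1.27. Of 11 endoplasmic reticulum chaperones, 0 were higher and 2 lower past both cutoffs in the 6-library set, and 0 higher and 9 lower in the 12-library set, where 1884 and 1936 of 13188 genes were lower, with medians of -0.28 and -0.71. The disulfide isomerases Pdia3 and Pdia4 were at -0.68 and -0.93 and at -0.54 and -1.17. The cochaperones Dnajb11 and Dnajb9 were at -0.64 and -0.64 and at -0.57 and -1.06.

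With siAHR-2, 0 genes of these lists passed both cutoffs in limma. At an unadjusted p of 0.05, 3 of 7 prefoldin and phosducin-like genes, 9 of 13 tubulins and actins, 1 of 5 tubulin cofactors, 5 of 9 mitochondrial, 12 of 15 cytosolic, 11 of 11 endoplasmic reticulum and 1 of 4 R2TP genes passed, beside 5326 of 13188 genes in all. With adjustment, siAHR-2 lowered at an FDR of 5% 3 of 7 prefoldin and phosducin-like genes, 8 of 13 tubulins and actins, 0 of 5 tubulin cofactors, 5 of 9 mitochondrial, 7 of 15 cytosolic, 9 of 11 endoplasmic reticulum and 1 of 4 R2TP genes, beside 15.5% of all genes. It raised 1 tubulin or actin gene, 2 cytosolic and 1 endoplasmic reticulum gene, where 1813 of 13188 genes were higher. With siAHR-5, Hspb1 passed as higher (0.66), and Bag3 (-0.79) and Ruvbl1 (-0.68) passed as lower. At the same FDR, siAHR-5 lowered 5 of 7 prefoldin and phosducin-like genes, 3 of 13 tubulin and actin genes, 2 of 5 tubulin cofactors, 6 of 9 mitochondrial HSP70 cycle and protease genes, 8 of 15 cytosolic genes, 8 of 11 endoplasmic reticulum chaperones and 3 of 4 R2TP genes, beside 18.1% of all genes. It raised 3 cytosolic genes and 1 endoplasmic reticulum gene, where 2786 of 13188 genes were higher. All 8 CCT subunits and both mitochondrial chaperonin genes were lower at that FDR.

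**Figure D5:**
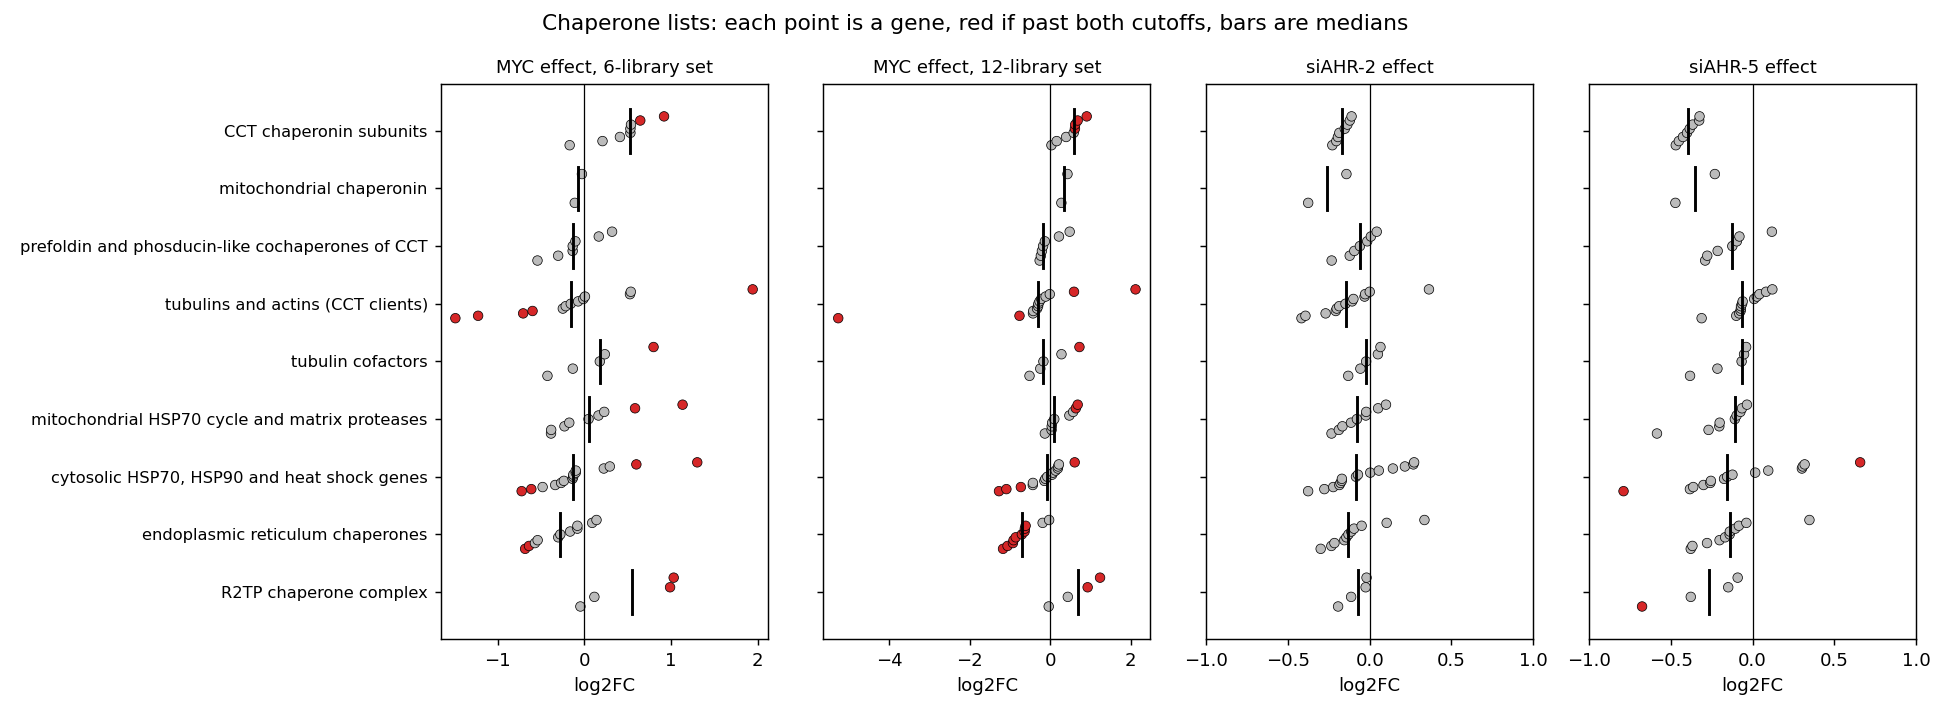
log2FC of each measured gene in the chaperone lists for the 4 comparisons, with a separate horizontal scale for each panel. Points are genes, red points passed both cutoffs and vertical bars are list medians. The CCT subunits have medians of 0.53 and 0.60 in the MYC panels, and all 8 lie left of 0 in the siRNA panels.

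The members differed in how closely they followed their common mean. Over the 18 libraries, after the mean of each set was subtracted, Pearson's r with the mean of the 10 genes was 0.990 for Cct3 and between 0.941 and 0.972 for Cct2, Cct5, Cct6a, Cct7 and Cct8. It was 0.744 for Cct4, 0.653 for Hspe1, 0.491 for Hspd1 and 0.0878 for Tcp1. The other genes most like the mean were Cops3 (0.983), Pa2g4 (0.978), Zfp259 (0.973), Eif4a1 (0.972) and Otud6b (0.972). Each member is part of the mean it is set against, which tends to raise its r, and these other genes are not. All these values describe points that share libraries and groups.

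Within groups, after each group mean was subtracted, libraries that were high for one CCT subunit tended to be high for the others. The 28 pairs of CCT subunits had a median r of 0.750 (0.496 to 0.903) over 18 libraries. Hspd1 had a median r of 0.785 with the CCT subunits, Hspe1 had 0.569, and Hspd1 and Hspe1 had 0.217 with each other. Scaling differences between libraries enter all of these values.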

How the data were processed

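RNA-seq of 18 libraries in 6 groups of 3 was used. The authors enriched poly-A RNA, assessed read quality with the NGS-QC-Toolkit, used HISAT2 2.1.0 for alignment to rn6, removed genes with under 10 total reads and normalized with DESeq2. The read counter and annotation are not given in the sources used here. The authors deposited log2 values for 13188 genes, labelled as log CPM. The antilog values of a library sum to 86.3 to 161 times what CPM would, so they are not CPM, and no counts, depth or precision from depth can be had from them. Value columns without a sample numbered 0. The leading principal component over the 18 libraries held 74.7% of the variance. The median log2 value of a library was 11.00 to 11.05 in the 6-library set (myc-/- siCtrl, myc-/- + MYC). It was 11.61 to 11.68 in the 12-library set (all others).

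Groups came from the sample labels. Comparisons within a set were fitted with limma 3.58.1 in R 4.3.3 (lmFit, then eBayes with a trend, 2-sided) on the deposited values of all genes, using only the groups compared, with Benjamini-Hochberg adjustment over all 13188 genes. The cutoffs were a fold of 1.50 with an adjusted p of 0.01, and separately an FDR of 5%. The difference between the MYC effects used one fit of 12 libraries. The fits were tested on simulated data. Alternatives were the cutoff, quantile normalization, median centring, a filter keeping genes with a mean of 1 or more, adding a pseudocount of 1, no trend, all 18 libraries in one fit, the replicate block and leaving out each library.

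The members, lists and tests were chosen with earlier results of these data known. All 10 members are named. In each list and MYC comparison, up to 4 genes are named, those past the cutoffs with the largest change first and otherwise those with the highest mean. The 5 other genes most like the members are those with the highest r with their mean. Genes named outside this rule (Hspa9, and a gene's value in the set where the rule does not name it) were chosen after their values were seen. Vbp1, Pfdn4, Tubb2b, Clpp, Krt18, Myod1 and Myog were not analysed here. Promoter windows came from RefSeq (GRCr8). Figures used matplotlib 3.10.9 in Python 3.11.15.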

Additional observations from a re-analysis of the deposited data

Results flagged for a closer look

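The MYC effect differed between the 12-library set and the 6-library set at an FDR of 5% for 5 of the 10 genes, in the interaction fit with limma. At the same FDR it differed for 7235 of 13188 genes, so the share of the 10 genes is not above that of all genes. The difference in log2FC was 0.54 for Hspd1 (0.43 against -0.11, adjusted p = 9.36e-06), 0.30 for Hspe1 (0.28 against -0.03, adjusted p = 0.00222), 0.20 for Cct8 (0.61 against 0.41, adjusted p = 0.0108), 0.20 for Tcp1 (0.03 against -0.17, adjusted p = 0.0321) and 0.15 for Cct6a (0.68 against 0.53, adjusted p = 0.0423). As labelled, the control group is transfected in the 6-library set and the MYC group in the 12-library set, and the labels of the 6-library set could not be checked against the values. The sets also lie on different scales, so that these cannot be told apart from a difference in the response to MYC. With 1 library left out, 3 to 5 of the 10 genes passed.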

How the results depend on the processing

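Of the values of single members under alternatives that keep the cutoffs, 812 kept their direction and side, 12 went past the cutoffs, 1 no longer passed and 15 turned. Dropping the fold cutoff let 46 more values pass at the FDR alone. The number of members past both cutoffs was 2 for MYC in the 6-library set, 4 for MYC in the 12-library set, and 0 for siAHR-2, siAHR-5 and both differences. Without a fold cutoff, at an FDR of 5%, these became 8, 9, 10 and 10, with 10 for siAHR-5 minus siAHR-2 and 5 for the difference between sets. Quantile normalization gave 6, 7 and, for the difference between sets, 1 (Hspd1), and median centring also gave 1 there. Over all genes, quantile normalization gave 1799 higher and 1684 lower, 1796 and 1660, and 1025 and 1183 in these comparisons. Leaving out each library gave 2 to 2 for MYC in the 6-library set, 3 to 5 in the 12-library set, and 0 to 0 in the other comparisons. Members at an FDR of 5% then numbered 7 to 9, 8 to 9, 6 to 10 (siAHR-2), 10 to 10 (siAHR-5), 8 to 10 (siAHR-5 minus siAHR-2) and 3 to 5 (difference between sets). The cause was not tested.

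Directions turned for these values. For MYC in the 6-library set, quantile normalization gave 0.061 for Tcp1, which was lower at an FDR of 5% (-0.17) before it, 0.11 for Hspd1 and 0.090 for Hspe1, and leaving out each library gave -0.049 to 0.0055 for Hspe1. For MYC in the 12-library set, leaving out each library gave -0.0033 to 0.060 for Tcp1. The difference between sets turned positive for Cct2 (0.039) and Cct5 (0.11) under quantile normalization, and for Cct2 (0.057), Cct4 (0.033) and Cct5 (0.069) under median centring. Leaving out each library gave -0.064 to 0.0036 for Cct2 and -0.049 to 0.021 for Cct5. The cause was not tested. Quantile normalization moved the median log2FC of genes above a value of 14 from -0.17 to 0.04 in the 6-library set, and the member medians to 0.66, 0.71, -0.09 and -0.26. At an FDR of 5% it ended the calls of Cct2, Cct5 and Cct8 for siAHR-2 (-0.07, -0.02 and -0.03, adjusted p = 0.0952, 0.570 and 0.548, limma). It also ended that of Hspd1 for siAHR-5, and those of Tcp1 and Cct6a for the difference between sets, where Cct3 gained one. Over all genes, the calls higher and lower were 194 and 112 for siAHR-5, 127 and 126 under quantile normalization and 140 and 165 under median centring. They were 21 and 41 for siAHR-2 and 15 and 53 under median centring, and 896 and 1275 for the difference between sets and 1148 and 1036 under median centring. At an FDR of 5% without a fold cutoff, 10051, 8538, 3860 and 5169 genes passed for the 2 MYC and 2 siRNA comparisons, against 1653 higher and 1884 lower, and 1425 higher and 1936 lower, past both cutoffs for MYC.

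The replicate numbers were not used to pair the samples in the main fits. The correlation of deviations of same-numbered libraries averaged -0.03 to 0.10 and was over 0.1 for every number in no comparison. It was 0.22, 0.14 and -0.06 for replicates 1, 2 and 3 of siAHR-5 against siCtrl. With 3 libraries per group, these values cannot decide whether same-numbered libraries were handled together. With the replicate block, members past both cutoffs numbered 2, 4, 0 and 0, and 0 for both differences. At an FDR of 5% they numbered 8, 9, 7 and 10, then 9 and 4 for the differences. Over all genes, siAHR-2 gave 0 calls past both cutoffs with the block in limma, where 5030 genes had an unadjusted p under 0.05. Depth is unknown, so the spread between libraries is the sole measure of error.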
